A study of Mus musculus with 24 samples.

Results

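The transcripts of 9 hepatokines and secreted metabolic regulators were followed in whole livers of C57BL/6J mice fed the FFD, a high-fat diet containing palm oil, fructose and cholesterol, or its control diet. The genes were chosen by symbol: Fgf21, Gdf15, Fetub, Ahsg, Angptl4, Angptl8, Lect2, Inhbe and Tsku. Of the 56205 genes counted, 17913 had enough reads to be tested, and all 9 hepatokine genes were among them. Each diet had 12 libraries of poly(A) RNA, from mice 8 to 10 weeks old at the start and kept 20 weeks on the diet. Both sexes were used, 6 mice per diet and sex, and the labels name neither a gene deletion nor a compound, nor the sex of a library.

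Hepatokines are proteins that the liver releases into the blood and through which it acts on other organs. FGF21 and GDF15 are stress-induced hormones that act through receptor complexes with beta-Klotho and GFRAL. ANGPTL4 and ANGPTL8 restrain lipoprotein lipase, the enzyme that frees fatty acids from circulating triglyceride, and fetuin-A and fetuin-B are plasma proteins of the cystatin superfamily. Whole liver is a mixture of cells, and fewer cells of a type and less RNA per cell cannot be told apart in these libraries.

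Promoters are shown first because the stress-response transcription factors ATF4 and CHOP bind a composite element, TGATGNAA, in several genes of this kind. A RefSeq window (GRCm38.p6) of 250 bases before and 50 bases after the start was at hand for 8 of the 9 genes, all but Angptl4. The element, read on both strands, lay in the windows of 3 of these 8 genes and in 3.97% of all 32851 windows. Gdf15, Fetub and Tsku had 2 windows each, and a gene counted if either held the element. The 200 bases before the start of the 3 genes, and of Gdf15, follow 5′ to 3′ on the strand of each gene, with the matches to the searched motifs in capitals.
Fgf21, chr7:45615491-45615690, minus strand: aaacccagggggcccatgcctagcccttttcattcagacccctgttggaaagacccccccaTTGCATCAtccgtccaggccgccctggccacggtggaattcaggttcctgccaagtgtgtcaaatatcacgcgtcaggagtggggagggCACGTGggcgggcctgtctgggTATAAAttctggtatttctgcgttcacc
Angptl8, chr9:21835310-21835509, plus strand: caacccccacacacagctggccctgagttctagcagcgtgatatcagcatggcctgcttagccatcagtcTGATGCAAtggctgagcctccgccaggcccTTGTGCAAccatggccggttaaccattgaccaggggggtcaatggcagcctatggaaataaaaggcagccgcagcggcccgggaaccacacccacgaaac
Inhbe, chr10:127351849-127352048, minus strand: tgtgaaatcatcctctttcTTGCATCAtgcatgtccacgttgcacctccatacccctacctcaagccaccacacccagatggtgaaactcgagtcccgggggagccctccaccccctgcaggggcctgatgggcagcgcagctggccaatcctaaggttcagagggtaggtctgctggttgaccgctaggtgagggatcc
Gdf15, chr8:70632457-70632656, minus strand: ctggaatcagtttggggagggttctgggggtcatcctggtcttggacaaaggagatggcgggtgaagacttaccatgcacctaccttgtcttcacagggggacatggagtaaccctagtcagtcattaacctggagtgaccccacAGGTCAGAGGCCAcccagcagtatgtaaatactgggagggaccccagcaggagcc

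In Fgf21 the element lay on the reverse strand (TTGCATCA) from base -139 to -132, counted from the last base before the start as -1. In Inhbe the same letters lay from -181 to -174, and in Angptl8 the element lay on the forward strand (TGATGCAA) from -130 to -123. Among the 13 genes of the ATF4 and CHOP stress list, 5 held it, including Atf3 from -110 to -103. The Fgf21 window also held an E-box (CACGTG, in 7.15% of all windows) and a TATAAA box (in 13.6%). The Angptl8 window held a C/EBP motif (TTGCNNAA, in 10.8%) that overlapped no other match. In the Gdf15 window shown a direct repeat of nuclear receptor half-sites 1 base apart (DR1, in 0.3805% of windows) lay from -55 to -43. The second Gdf15 window, not shown, held an E-box from -83 to -78. The HNF1 palindrome, searched for as well, was in none of the 8 genes' windows. A match is a run of letters and says nothing about binding in these livers.

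Levels differed widely among the 9 genes. In TPM (counts per kilobase of exon, scaled to the same sum in each library), the median control level was 7411 for Ahsg, which ranked at position 23 among all genes, 486 for Fetub and 241 for Lect2, with ranges over control livers that did not overlap with any neighbour in this order. Angptl4 stood at 91.2, Angptl8 at 60.3, Tsku at 54.3 and Inhbe at 28.4, and the ranges of neighbours in this order overlapped. Fgf21 at 10.9 and Gdf15 at 10.2 were the lowest, with overlapping ranges of 6.90 to 16.8 and 3.11 to 25.5. The exon model used for Inhbe (5319 bases) makes its value per length uncertain.

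The libraries held 14468418 to 22112552 counts. They fell into 2 sets of 12, each with 6 per diet, by Xist: 2664 to 6285 Xist counts and 0 of Ddx3y in replicates 1 to 6, and at most 3 Xist counts with 448 to 1016 of Ddx3y in replicates 7 to 12. The sets are not groups of the labels. Certain libraries stood apart. Control replicate 10 was the smallest and had 2173 CPM (counts scaled to the library total and the TMM factor) of the hepatocyte receptor gene Asgr1, against a control median of 573. FFD replicate 3 had 66.2 CPM of the neutrophil gene S100a8, against an FFD median of 0.990, and FFD replicate 9 had 48.1 CPM of the bile duct keratin Krt19, against 2.64. Cell type markers also moved with the diet: 7 of 10 hepatocyte markers were lower (median log2 fold change -0.71), and 7 of 10 macrophage, 7 of 10 stellate cell and 4 of 6 bile duct markers were higher. Of all tested genes 4.99% were called lower and 13.2% higher. With library totals in place of TMM the hepatocyte marker median was -0.40. The summed hepatocyte markers ranged from 42079 to 98622 CPM on the FFD and from 93931 to 141351 CPM on the control diet, and the summed macrophage markers from 699 to 1598 and from 181 to 802 CPM. Their part in the hepatokine differences was not tested. Of the 5 adipocyte markers, 4 were near 0, with at most 7 counts of Retn, 6 of Plin1 and 5 of Adipoq in any library and 0 of Lep, while Cfd ranged up to 19.2 CPM on the FFD and 19.8 CPM on the control diet (medians 1.89 and 0.477 CPM).

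Gdf15 was higher on the FFD, Ahsg was lower, and the other 7 hepatokines did not pass the test. A call needed an adjusted p no higher than 0.01 in edgeR's quasi-likelihood test and a log2 fold change beyond 0.5 in size. This called 18.2% of all tested genes, 13.2% higher and 4.99% lower, so 2 of 9 is close to the share among all genes. The same shares are the background for the list counts below. The median log2 fold change was -0.37 over the 9 genes and -0.03 over all genes tested.

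**Figure D1:**
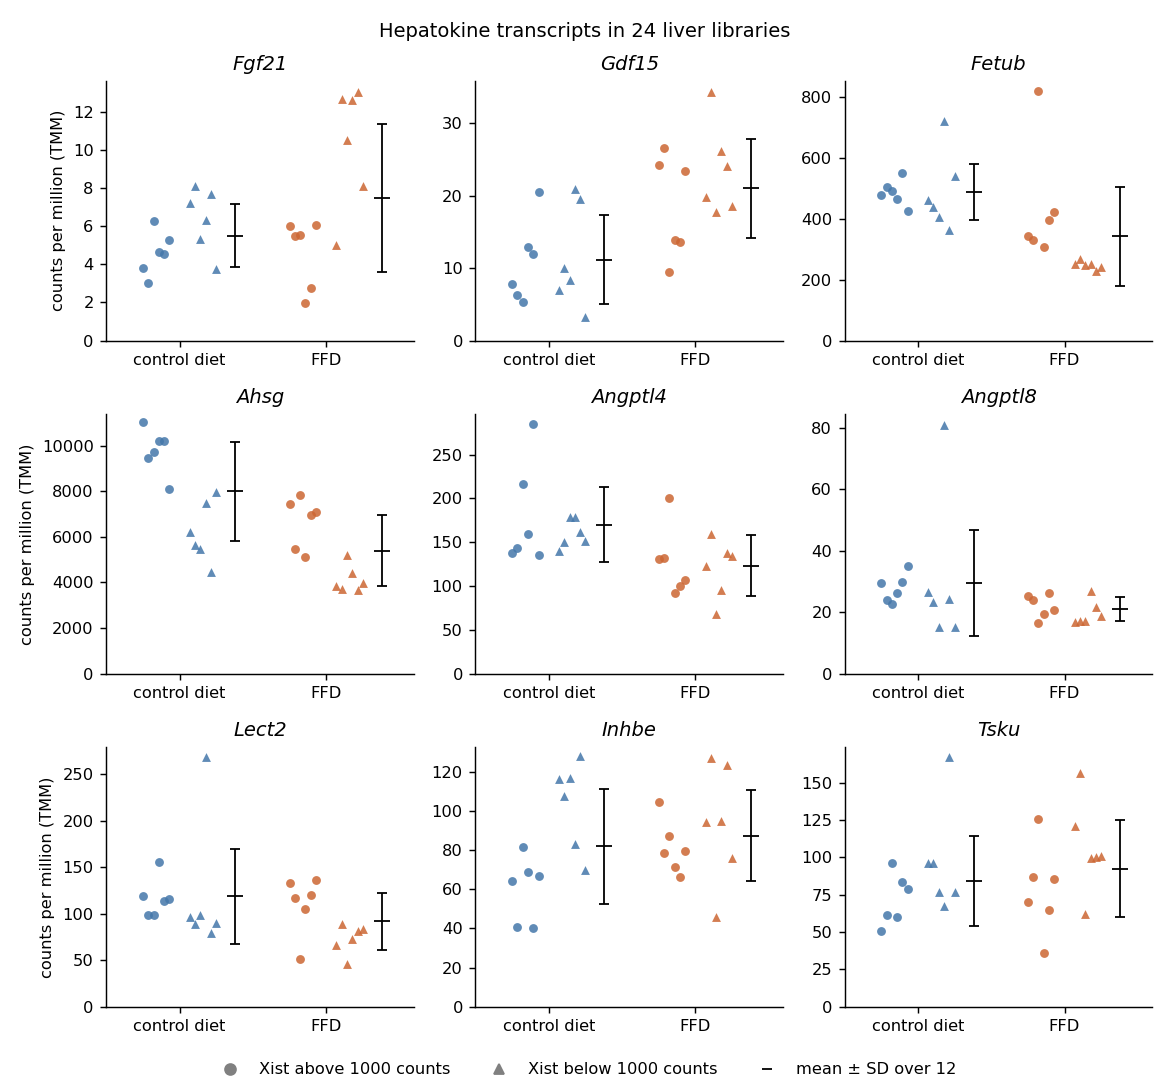
Each panel shows one gene, with TMM-scaled CPM on a linear axis from 0 for the 12 control (blue) and 12 FFD (orange) libraries; circles and triangles mark the sets with Xist above and below 1000 counts, and bars give mean ± SD. Gdf15 sits higher and Ahsg lower on the FFD, with single far points for Fetub (FFD, 819), Angptl8 (control, 81.0) and Lect2 (control, 268).

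Among the stress hormones, Gdf15, the ligand of GFRAL that reduces food intake, rose 1.88-fold. Its level was 9.43 at the lowest, 21.6 at the median and 34.3 at the highest CPM on the FFD, and 3.29, 9.24 and 20.9 CPM on the control diet. All 12 FFD livers were above the control median and 6 were above the highest control liver, while 6 control livers lay within the FFD range, the highest being replicates 6, 10 and 11. The log2 fold change was 0.91 (SE 0.25, edgeR adjusted p = 0.00565, n = 12 per diet). With 1 library left out the call was kept in 18 of 24 fits, with log2 fold changes of 0.83 to 1.03 over all 24, and it was lost without FFD replicate 8 or control replicate 1, 2, 3, 7 or 9 (adjusted p 0.0101 to 0.0114 by edgeR). It was also lost within either Xist set (log2 fold change 0.78 and 1.05). Without FFD replicate 3 and control replicate 10 it was 1.10 (edgeR adjusted p = 0.000825).

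Fgf21, the fasting and protein-restriction hormone that acts through beta-Klotho, did not pass the test. It ranged from 1.99 to 13.1 CPM on the FFD (median 6.04) and from 3.02 to 8.13 CPM on the control diet (median 5.31). The FFD livers were the more variable, with a coefficient of variation of 51.7% against 30.0%, and 4 of them were above and 2 below every control liver. The 4 high livers all belonged to the set with Xist below 1000 counts. In that set the log2 fold change was 0.70 (SE 0.23, edgeR adjusted p = 0.029), and in the other set 0.03 (SE 0.26, edgeR adjusted p = 0.969). The difference between the sets was 0.67 (SE 0.37), with an adjusted p of 0.277 for the interaction in edgeR, so the sets cannot be said to differ. Over all libraries the log2 fold change was 0.45 (SE 0.25, edgeR adjusted p = 0.158).

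Receptors and upstream genes of both hormones were examined as lists. Of the 5 tested receptor genes 0 were called by edgeR over all libraries with diet as the only term, and 1 each by DESeq2 and limma-voom, and 2 had an unadjusted p under 0.05. Klb, which encodes beta-Klotho, had medians of 16.5 CPM on the FFD and 26.8 CPM on the control diet, and 6 FFD livers lay below every control liver, with a log2 fold change of -0.66 (edgeR adjusted p = 0.0149). Klb passed both thresholds in edgeR with the Xist set as a covariate (-0.78), in the set with Xist below 1000 counts (-1.27, against -0.29 in the other set) and without FFD replicate 1, FFD replicate 4 or control replicate 10. Gfral had 0 counts in every library and its partner Ret at most 3. In the ATF4 and CHOP list 3 of 13 genes were called, all of them higher, and the list median was 0.41.

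The 3 that rose were Atf3, Psat1 and Trib3. Atf3, a stress-induced transcription factor, ranged from 4.74 to 15.9 CPM on the FFD and from 0.509 to 3.68 CPM on the control diet, without overlap, as did 1.89% of all tested genes in either direction. Its log2 fold change was 2.50 (SE 0.26), against 1.52 for the serine synthesis enzyme Psat1 and 0.75 for Trib3, a pseudokinase target of CHOP. Trib3 was called in neither Xist set (edgeR adjusted p = 0.0594 above and 0.0122 below 1000 counts). Psat1 was low, with a control mean of 0.803 CPM, and was not called in the set above (edgeR adjusted p = 0.0314). Atf4 itself had a log2 fold change of -0.21 (edgeR adjusted p = 0.149), and Ddit3, which encodes CHOP, one of 0.48 (edgeR adjusted p = 0.008), under the fold threshold.

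PPAR-alpha, the fasting receptor that drives Fgf21 and Angptl4, had a log2 fold change of -0.50 at its gene Ppara (edgeR adjusted p = 0.0603). Of its 15 list genes (Ppara included) 1 rose, the peroxisomal thiolase Acaa1b (0.81), and 1 fell, the fatty acid binding protein Fabp1 (-0.73). Scaled by library totals alone, without TMM, Fabp1 was -0.44, not a call. Of the 12 genes of the SREBP-1c and ChREBP list, which holds lipogenic targets and both regulators, 0 were called by edgeR and 1 each by DESeq2 and limma-voom, and 5 had an unadjusted p under 0.05. The regulators Srebf1 and Mlxipl had log2 fold changes of 0.38 and -0.24 (edgeR adjusted p = 0.115 and 0.109).

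**Figure D2:**
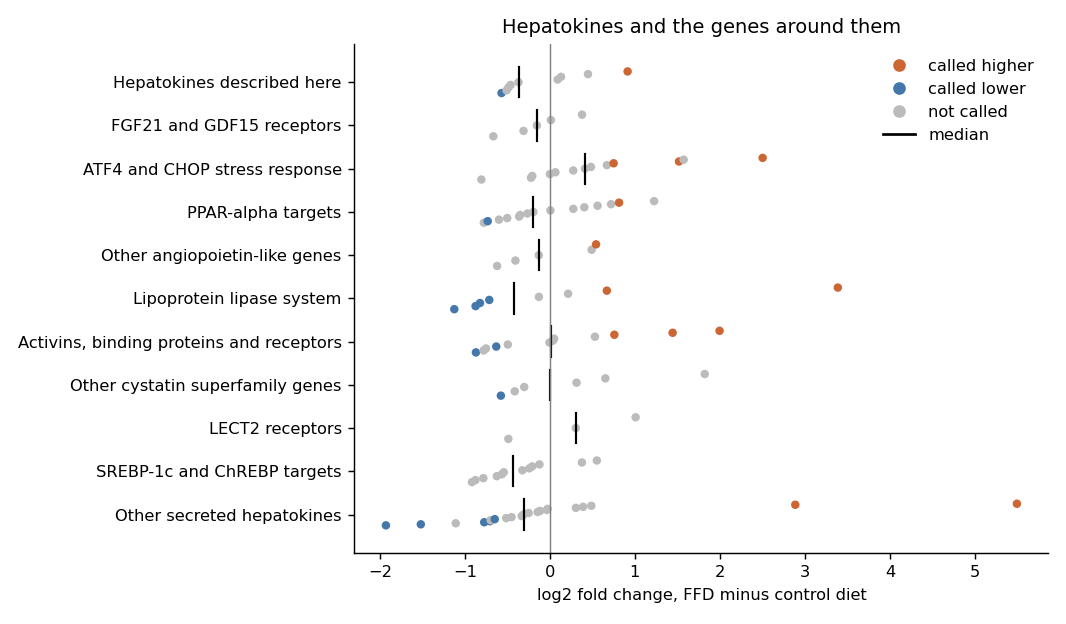
Each point is one tested gene at its log2 fold change (FFD minus control diet), in rows by gene list; orange points were called higher, blue points lower, grey points were not called, and black bars are list medians. Lpl (3.39) and Gpnmb (5.49) lie far to the right, and Gdf15 and Ahsg are the called points in the top row.

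The fetuins were the most abundant of the 9. Ahsg, which encodes fetuin-A, an inhibitor of calcification and of insulin receptor signalling, fell. Its levels were 3662, 5144 and 7826 CPM (lowest, median, highest) on the FFD and 4439, 8025 and 11021 CPM on the control diet. All 12 FFD livers were below the control median, 5 were below the lowest control liver and 7 control livers were above the highest FFD liver. The TPM medians, which use no TMM factor, were 5962 on the FFD and 7411 on the control diet, with lowest livers of 4336 and 4115.

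The log2 fold change of Ahsg was -0.57 (SE 0.17, edgeR adjusted p = 0.00828, n = 12 per diet), by which the level fell by 32.6%. The control livers of the 2 Xist sets did not overlap (8086 to 11021 CPM with Xist above 1000 counts, 4439 to 7964 CPM below), and the diet difference was of the same size in both, -0.55 and -0.57. With the set as a covariate the edgeR adjusted p was 0.000108. Scaling by library totals alone ended the call (-0.30, edgeR adjusted p = 0.128), and so did leaving out any of FFD replicates 2, 4 and 7 to 12 or control replicates 1 to 6 and 12 (adjusted p up to 0.0166). An antisense gene shares 62 exon bases with Ahsg (2.82% of its exon length), and whether reads were counted by strand is not given in the sources used here.

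Fetub, which encodes fetuin-B, ranged from 227 to 819 CPM on the FFD (median 288) and from 362 to 721 CPM on the control diet (median 472). Of the FFD livers 9 were below every control liver, and 1, replicate 3, was above every control liver. The log2 fold change was -0.51 (SE 0.17, edgeR adjusted p = 0.0206), not a call. Without FFD replicate 3 it was -0.70 with an edgeR adjusted p of 6.02e-05, and with library totals in place of TMM -0.23 with an edgeR adjusted p of 0.196.

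The diet difference of Fetub was larger in the set with Xist below 1000 counts. There the FFD livers ranged from 227 to 269 CPM and the control livers from 362 to 721 CPM. The log2 fold change was -0.96 (SE 0.15, edgeR adjusted p = 0.000216). In the other set it was -0.15 (SE 0.20, edgeR adjusted p = 0.682), and -0.42 (SE 0.11, edgeR adjusted p = 0.0131) there without FFD replicate 3. The difference between the sets, -0.82 (SE 0.26), had an interaction adjusted p of 0.0464 in edgeR, a threshold of 0.05 that 10.2% of all genes passed, and it was -0.54 (adjusted p = 0.06) without that library.

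**Figure D3:**
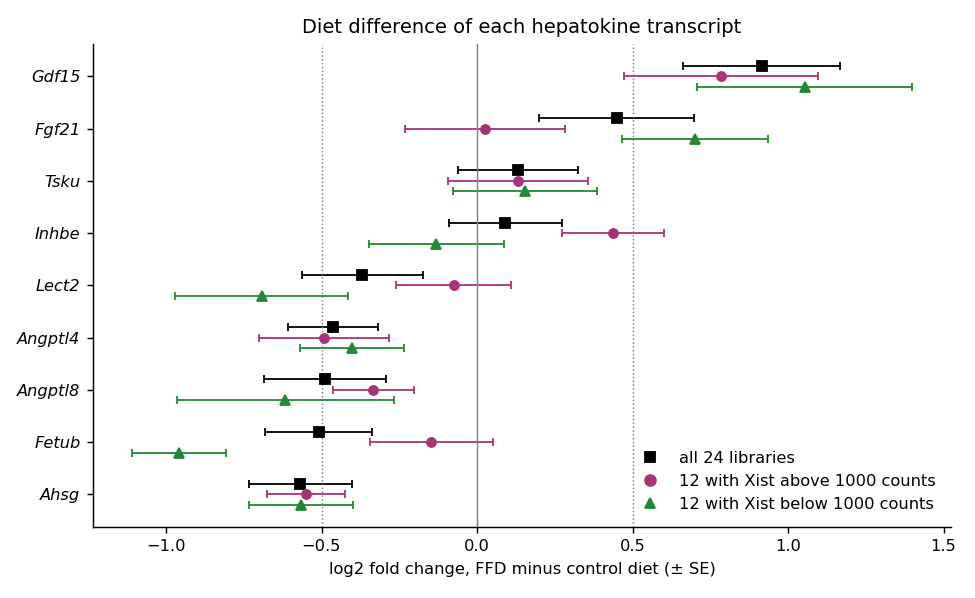
Points are log2 fold changes (FFD minus control diet, horizontal axis) with bars of ± SE for each gene, over all 24 libraries (squares) and in the 12 libraries with Xist above (circles) or below (triangles) 1000 counts; dotted lines mark the fold threshold of 0.5. Fetub is at -0.15 and -0.96 in the 2 sets, and Ahsg at -0.55 and -0.57.

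Ahsg and Fetub are neighbours on chromosome 16 (GRCm38, chr16:22891277-22899449 and chr16:22918334-22939778), followed by Hrg, Kng2 and Kng1, which encode histidine-rich glycoprotein and kininogens of the same superfamily. All 5 had a log2 fold change below 0, as did all 10 hepatocyte markers (median -0.71). Of the 22 other secreted liver proteins tested, 5 were above 0, so the shared sign is not particular to these neighbours. Kng1, the kininogen that gives rise to bradykinin, fell by 0.58 (SE 0.12, edgeR adjusted p = 0.00055), and with library totals it was -0.30, not a call. The values were -0.30 for Hrg and -0.41 for Kng2, neither past the fold threshold. Of the 6 other cystatin superfamily genes tested, Kng1 was the 1 called.

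Of the inhibitors of lipoprotein lipase, neither was called. Angptl4 ranged from 68.4 to 201 CPM on the FFD (median 127) and from 136 to 285 CPM on the control diet (median 155). Of the FFD livers 9 lay below every control liver. The log2 fold change was -0.46 (SE 0.15, edgeR adjusted p = 0.0134), and -0.55 (edgeR adjusted p = 0.00237), a call, without FFD replicate 3, the highest FFD library. With library totals in place of TMM it was -0.18 (edgeR adjusted p = 0.313). The TPM medians, which use no TMM factor, were 90.5 on the FFD and 91.2 on the control diet. The lowest livers in TPM were 60.6 on the FFD and 61.1 on the control diet, so the separation above depended on the scaling.

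Angptl8, which rises in liver after feeding, had medians of 20.2 CPM on the FFD and 25.2 CPM on the control diet. Control replicate 10 stood at 81.0 CPM, where the highest FFD liver had 27.0 CPM. The log2 fold change of -0.49 (SE 0.20, edgeR adjusted p = 0.0488) became -0.24 without that library. In TPM, which uses no TMM factor, the medians were 60.9 on the FFD and 60.3 on the control diet. The gene lies within Dock6 on the other strand, with 0 shared exon bases.

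Around them, the lipoprotein lipase list changed in both directions, with 2 of 8 genes higher and 4 lower. Lpl, the lipase itself, ranged from 71.8 to 221 CPM on the FFD and from 6.33 to 32.5 CPM on the control diet, without overlap (log2 fold change 3.39, SE 0.28). Its cofactor gene Apoc2 was called (0.67), but in 11 of the 24 fits with 1 library left out and in neither Xist set (adjusted p up to 0.0153 without FFD replicate 7, 8, 10, 11 or 12 or control replicate 1, 2, 3, 5, 7, 8, 9 or 12 by edgeR). The endothelial lipase gene Lipg (-1.12), Apoa5 (-0.87), which aids lipolysis, Apoc3 (-0.82, and -0.53 without control replicate 10), which inhibits it, and the hepatic lipase gene Lipc (-0.71) fell. With library totals Apoc3 (-0.48) and Lipc (-0.45) were not called (edgeR adjusted p = 0.0151 and 0.0218). Apoc3 was called in neither Xist set (-0.41 above and -1.22 below 1000 counts, edgeR adjusted p = 0.0495 and 0.013). Lipg was not called in the set below (edgeR adjusted p = 0.0125). Angptl2, another angiopoietin-like gene, was called (0.54), but not without FFD replicate 9, 10 or 11 or control replicate 4, 5, 7, 9 or 10 (adjusted p up to 0.0141 by edgeR, values 0.48 to 0.61) and in neither Xist set.

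Lect2, a chemotactic hepatokine that impairs insulin signalling in muscle, had medians of 86.4 CPM on the FFD and 98.9 CPM on the control diet. Control replicate 10 stood at 268 CPM, above every other liver, and the ranges otherwise overlapped. In TPM, which uses no TMM factor, the highest livers were 364 on the FFD and 353 on the control diet, with medians of 248 and 241. The log2 fold change was -0.37 (SE 0.19, edgeR adjusted p = 0.136), and -0.19 without control replicate 10. Of its 3 listed receptor genes 0 were called by edgeR and 1 each by DESeq2 and limma-voom, and 3 had an unadjusted p under 0.05; Met (-0.49) was just under the fold threshold.

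Inhbe, which encodes the activin E subunit, a liver signal to adipose tissue, ranged from 45.8 to 127 CPM on the FFD and from 40.3 to 128 CPM on the control diet. The ranges overlapped nearly in full. Its log2 fold change was 0.09 (SE 0.18, edgeR adjusted p = 0.72). It was 0.44 (SE 0.16, edgeR adjusted p = 0.0904) in the set with Xist above 1000 counts and -0.13 (SE 0.22, edgeR adjusted p = 0.666) in the set below, a difference of -0.57 (SE 0.29, adjusted p = 0.231 for the interaction in edgeR). Of 12 other tested genes of the activin system 3 were called higher and 2 lower, where 13.2% and 4.99% of all tested genes were. The activin antagonist gene Fstl3 and the subunit genes Inha (1.44) and Inhbb (0.76) rose, and the type II receptor genes Acvr2b (-0.87) and Acvr2a (-0.63) fell. Fstl3 and Inha were low, at 1.32 ± 0.991 and 0.710 ± 0.631 CPM on the FFD against 0.321 ± 0.251 and 0.253 ± 0.161 CPM on the control diet (SD, n = 12). The call of Inha was lost without FFD replicate 9, 10 or 11 or control replicate 1, 2, 8, 9 or 12. In the set with Xist above 1000 counts Inha (0.27), Fstl3, Inhbb (0.52) and Acvr2b (-0.31) were not called. The edgeR adjusted p there was 0.745, 0.184, 0.202 and 0.397 in the same order. Acvr2a was not called in the set below (-0.61, edgeR adjusted p = 0.019). Inhbc, the other liver-enriched subunit gene, had a log2 fold change of -0.49, just under the fold threshold.

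Tsku, which encodes tsukushi, a secreted leucine-rich repeat protein, ranged from 36.04 to 156 CPM on the FFD and from 50.8 to 167 CPM on the control diet, with a log2 fold change of 0.13 (SE 0.19, edgeR adjusted p = 0.616). The highest liver was control replicate 11, without which the value was 0.27. For neither Inhbe nor Tsku did any of the 24 fits that left out a library give a call.

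Other secreted liver proteins, 22 tested, gave 2 genes that rose and 5 that fell, with a median of -0.31. Gpnmb, a glycoprotein also made by lipid-laden macrophages, rose most (5.49, SE 0.55), followed by the acute-phase gene Orm2 (2.89). Hamp, which encodes the iron hormone hepcidin, fell by 1.93, Enho by 1.52, the IGF carrier gene Igfals by 0.77, the growth factor gene Igf1 by 0.70 and the retinol carrier gene Rbp4 by 0.65 on the log2 scale. Of these 5 only Hamp kept its call with library totals (-1.56).

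From liver to liver, after the mean of each diet and set was removed, 0 pairs of the 9 genes passed an adjusted p of 0.05, and 11 had an unadjusted permutation p under 0.05 for r (36 pairs, 2 measures, 24 libraries). The pair nearest each other on the chromosome, Fetub and Ahsg, had r = 0.65 and rho = 0.64 (permutation p = 0.00264 and 0.00341, both adjusted to 0.0541), with r = 0.54 on the FFD, 0.82 on the control diet and 0.68 without the 2 farthest libraries. Angptl4 and Tsku had r = 0.64 and rho = 0.57 (permutation p = 0.00162 and 0.00669, adjusted 0.0541 and 0.0602), and r = 0.58 without the 2 farthest libraries. By diet r was 0.83 on the FFD and 0.30 on the control diet. Angptl8 and Lect2 had the highest r, 0.71, with rho = 0.61 (permutation p = 0.00915 and 0.00391, adjusted 0.0659 and 0.0541), and r fell to 0.44 without the 2 farthest libraries. By diet r was 0.56 on the FFD and 0.83 on the control diet.

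**Figure D4:**
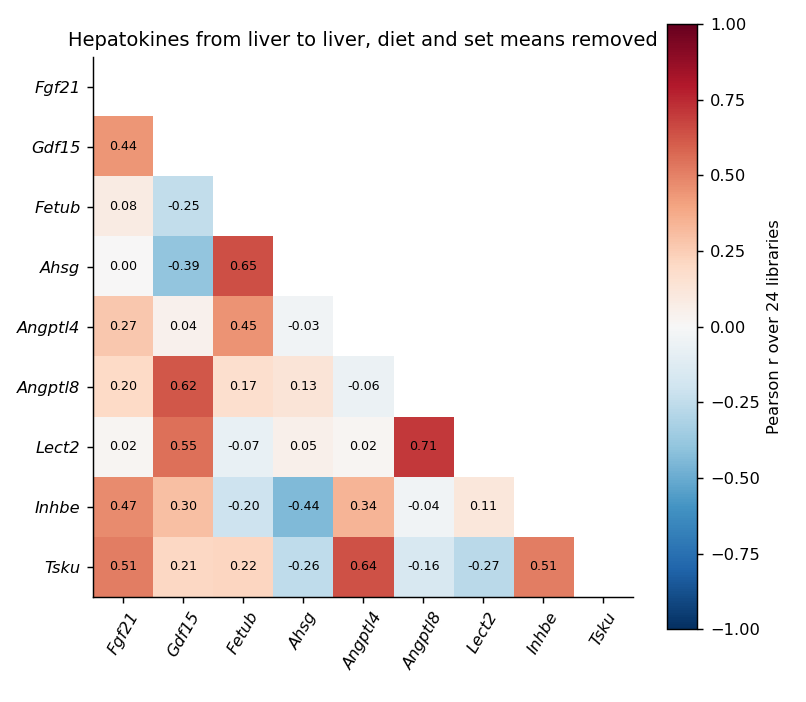
Each cell gives Pearson's r between a pair of genes over 24 libraries, from log2(CPM + 1) with the mean of each diet and set removed; red is positive and blue negative. Angptl8 with Lect2 (0.71), Fetub with Ahsg (0.65) and Angptl4 with Tsku (0.64) are the deepest red.

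As a description of the same deviations over 24 libraries, the transcripts most like each hepatokine among 12686 genes were Ftl1 for Gdf15 (r = 0.87), Vtn for Fetub (0.88), Serpina1a for Ahsg (0.83) and Cebpd for Angptl4 (0.86). For Fgf21 this was Pcp4l1 (r = 0.72), for Inhbe Rmdn3 (0.77) and for Tsku Ywhag (0.80). The closest to Lect2 was Coasy (r = 0.95) and to Angptl8 Rex1bd (0.91), and without FFD replicate 3 and control replicate 10 these were 0.89 and 0.75. Without the same 2 libraries Vtn fell to 0.71 for Fetub, where F10 had 0.73, and Cebpd to 0.82 for Angptl4, where Pxmp4 had 0.85.

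**Figure D5:**
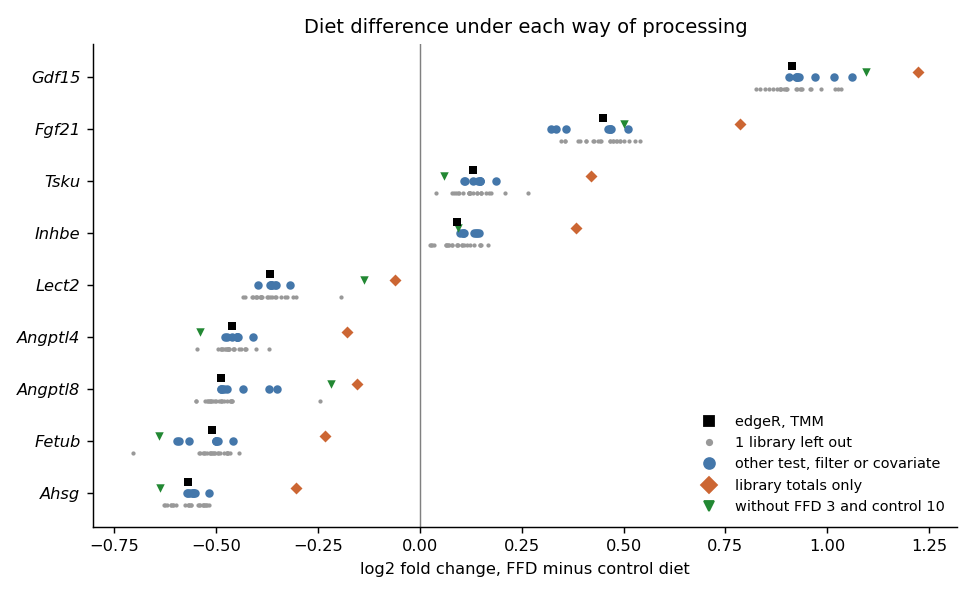
Log2 fold changes (FFD minus control diet, horizontal axis) of each gene under edgeR with TMM (squares), with 1 library left out (grey points), under other tests, filters or covariates (blue circles), with library totals only (orange diamonds) and without 2 libraries that stood apart (green triangles). No gene crosses 0 in the fits drawn, and library totals move every gene to the right. Fits within an Xist set are not drawn, and there Inhbe was 0.44 above and -0.13 below 1000 counts.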

How the data were processed

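The authors deposited whole-number read counts for 56205 Ensembl gene IDs in 24 mouse liver libraries, without normalization. The submitters' processing notes name STAR 2.7.3a and mm10; the counting tool, annotation and strand setting are not given in the sources used here. Symbols, coordinates and exon lengths came from GENCODE M21 (51745 IDs matched). Per-sample columns left unused numbered 0. Differences were tested with edgeR 4.0.16 in R 4.3.3, with TMM scaling and diet as the only term, on genes counted in 12 or more libraries, with Benjamini-Hochberg adjustment over 17913 genes; the script was tested on simulated data. SE is the absolute log2 fold change over the square root of F. Correlations used 100000 two-sided permutations within diet and set. Replicate libraries differed beyond sampling noise (chi-square per degree of freedom of 9.48 or more), and a control library's 3 counts were worth 0.175 CPM on average.

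The 9 genes, the lists and the tests were chosen with earlier results of these data known. The text names the 9 genes, up to 4 rising and 4 falling called genes per list, Atf4, Ddit3, Ppara, Srebf1, Mlxipl and Klb, and the genes most like each hepatokine; other genes were named after their values were seen. Alternatives were DESeq2 1.42.0, limma-voom 3.58.1, other scalings, filters and thresholds, the replicate block, the Xist set as a covariate or a split, and each library left out. Leaving out FFD replicate 3 together with control replicate 10, and FFD replicate 3 in the interaction, was chosen after seeing the data. The result of a further gene of these lists is not reported here.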

Additional observations from a re-analysis of the deposited data

Results flagged for a closer look

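The diet difference of Fetub was flagged because it differed between the sets of libraries with Xist below and above 1000 counts. The log2 fold change was lower by 0.82 (value -0.82, SE 0.26) in the set below, with an adjusted p of 0.0464 in edgeR's interaction test. All 6 FFD livers of the set below were lower than its 6 control livers, and in the other set FFD replicate 3 was above its 6 control livers. How many of all genes separate 6 against 6 libraries in this way was not counted. The interaction was not past its threshold for the other 8 hepatokines (adjusted p 0.231 to 0.989). The same threshold, an adjusted p of 0.05, was passed by 10.2% of all tested genes. Fetub as the only hepatokine to pass is thus close to the share among all genes.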

How the results depend on the processing

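Gdf15 stayed called under all 9 other tests, scalings, filters and covariates over 24 libraries (log2 fold change 0.91 to 1.22) and was 0.78 and 1.05 with adjusted p of 0.107 and 0.0259 in the sets with Xist above and below 1000 counts (0.83 to 1.03 with 1 library left out, 1.10 without FFD replicate 3 and control replicate 10). Ahsg was -0.30 with library totals, -0.55 without a filter, -0.52 with at least 10 counts in every library, -0.55 and -0.57 in the Xist sets (-0.63 to -0.52 with 1 library left out), all uncalled but for 9 of the 24 left out. Fetub became a call with limma-voom (-0.59), the set as covariate (-0.57), Xist below 1000 counts (-0.96), without FFD replicate 3 (-0.70; range to -0.44) and without control replicate 10 as well (-0.64), and Angptl4 in these last 2 (-0.55 and -0.54; range with 1 library left out -0.55 to -0.37). The interaction of Fetub was -0.70 with limma-voom, -0.43 with library totals, -0.54 without FFD replicate 3 and -0.39 also without control replicate 10, none past its threshold. The causes were not tested. The all-gene median was -0.03 with TMM and 0.26 with library totals, which gave uncalled values of -0.23 for Fetub, -0.18 for Angptl4, -0.15 for Angptl8, -0.06 for Lect2, 0.38 for Inhbe, 0.42 for Tsku and 0.79 for Fgf21.

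Hepatokines called higher and lower numbered 1 and 1. The lower count was 0 with library totals, no filter or 10 counts in every library, 2 with limma-voom or the set as covariate and 3 without the 2 libraries; it was 0 and the higher 0 with Xist above 1000 counts, and the higher 0 with Xist below. With 1 library left out they ran from 0 to 1 and from 0 to 3. At an adjusted p of 0.05 without a fold threshold 4 were lower, and at a log2 fold change over 1 the counts were 0 and 0. All genes called, 2372 higher and 894 lower, became 3827 and 226 with library totals, 1226 higher with 10 counts in every library, 525 and 162 with Xist above 1000 counts, 1430 lower with Xist below, 3709 and 3388 at 0.05, and 216 lower at a log2 fold change over 1. List genes called, 12 higher and 13 lower, became 26 and 3 with library totals, 4 and 6 with Xist above 1000 counts and 22 lower with Xist below. They became 20 lower without the 2 libraries, 22 and 31 at 0.05 and 7 and 3 at a log2 fold change over 1. With 1 library left out they ran from 9 to 16 higher and from 13 to 20 lower. Among the falling list genes only Lipg (-0.88), Apoa5 (-0.57) and Hamp (-1.56) kept their calls with library totals. Acaa1b, Fabp1, Kng1, Rbp4, Igf1, Igfals and Hamp were not called with Xist above 1000 counts, and Enho was not called with Xist below. Pairs of hepatokines correlated at an adjusted p of 0.05 numbered 0, 1 with library totals and 10 with diet means only, where Fgf21 and Ahsg had r = -0.54 against 0.00.

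Same-numbered libraries of the diets deviated together in 11 of 12 numbers (correlations -0.0935 to 0.541), which is not every number, and no pairing of mice was assumed. With the replicate block Fetub was -0.59 (edgeR adjusted p = 0.00584), a call, 2 hepatokines were lower, and no other hepatokine call changed. Of the list genes named, Angptl2 (edgeR adjusted p = 0.0264), Inha (0.0412) and Enho (0.0147) lost their calls with the block, and Klb (-0.74) and Met (-0.51) gained one.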
